A study of Saccharomyces cerevisiae with 6 samples.

Results

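Chromosome VI is one of the shortest chromosomes of budding yeast, and its replication was followed here window by window in *pol2-REL* and wild-type cells. All windows of chromosome VI that do not overlap were taken, 270 of the 12070 in the genome and each 1 kb long, and 262 of them have a copy number ratio in all 4 S phase libraries. Within the chromosome, 6 known origins were read at fixed positions (SacCer2): ARS603 at 69000, ARS605 at 136000, ARS606 at 168000, ARS607 at 199000, ARS608 at 216000 and ARS609 at 256000. The long stretch up to position 118000 was read as a unit against the rest of the chromosome. The positions are known origin positions to the nearest kb. No value of these libraries entered the rule, but it was chosen with earlier results of these data known.

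The *pol2-REL* strain carries the changes R567C, E611K and L621F in Pol2, the catalytic subunit of DNA polymerase epsilon, which supports replisome assembly and leading strand synthesis. The wild-type strain carries unchanged Pol2, and in both strains, of W303 background, Pol2 has a 3HA tag marked with KAN. Cells were grown at 24 °C, arrested in G1 with alpha factor, and released with pronase, and samples were taken in G1 and at 30 and 40 min. Each genotype was represented by 1 strain and each condition by 1 library. Differences therefore have no replicate check, conditions were not tested against each other, and all intervals cover counting error only.

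In budding yeast, replication starts at ARS elements, short sequences bound by the origin recognition complex. Each origin fires at a characteristic time and in a characteristic share of cells, and a pair of forks leaves it in opposite directions. A locus between origins is copied by whichever fork reaches it first. On chromosome VI, ARS607 and ARS606 on the right arm, and ARS605 within the meiotic gene MSH4 near the centromere, are known as its active early or mid S phase origins. ARS603 on the left arm and ARS609 towards the right end are known as later or less efficient origins, and ARS608 is known to be mostly copied passively by the fork from ARS607. No genome sequence of the build was used here, so no origin sequence is shown.

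The values are read counts and relative copy number, which divides a window's S phase reads by its G1 reads in that genotype, scaled to a mean of 1 over the chromosome. A value above 1 thus marks a locus copied in more cells than the average of chromosome VI, and a gain in one part lowers the value elsewhere. Over its windows, chromosome VI collected 473091 (G1), 836608 (30 min) and 864180 (40 min) reads in *pol2-REL*, against 1116989, 1068217 and 810841 in wild type. The median window held between 1812 and 4276 reads, which gives a counting error between 1.53% and 2.35%. Chromosome VI took 2.47% of the *pol2-REL* G1 reads and 3.63% of the wild-type G1 reads, and between 2.66% and 2.79% of the reads of the 4 S phase libraries, with 2.24% of the windows. Its median window stood at 1.11 times the library median in *pol2-REL* G1 and at 1.73 times in wild-type G1. High values in wild-type G1 were not particular to chromosome VI: chromosome I stood at 1.77, III at 1.43 and IX at 1.31. The lowest was 0.874, on chromosome XII. Scaled to a mean of 1 over chromosome VI, the G1 libraries were close to each other: the smoothed ratio of *pol2-REL* G1 to wild-type G1 had an SD of 0.0214 and lay between 0.949 and 1.05. The level of chromosome VI as a whole, S phase share over G1 share, was 1.13 and 0.732 in *pol2-REL* and wild type at 30 min, and 1.08 and 0.757 at 40 min. The wild-type values have the large G1 share as their denominator, and only differences within the chromosome are described.

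Of the 8 windows that lack a ratio in at least 1 of the S phase libraries, 4 held no read in any library. These lie from 139001 to 143000, and their neighbours from 138001 to 139000 and from 143001 to 144000 are also among the 8, so the profile has a gap just right of ARS605. The authors excluded repetitive sequences, and a Ty2 element is known beside MSH4. Whether the gap is that element was not looked up here. The other 2 windows lie at 2001 and 10001, near the left end. The windows at 10001 and 143001 lack the ratio in *pol2-REL* only, where the counts were lower, and wild type has a ratio in 264 windows. Neighbouring windows of a profile differed by 1.332 to 1.397 times as much as counting error gives in the 4 S phase libraries, so the intervals below are somewhat narrow.

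**Figure D1:**
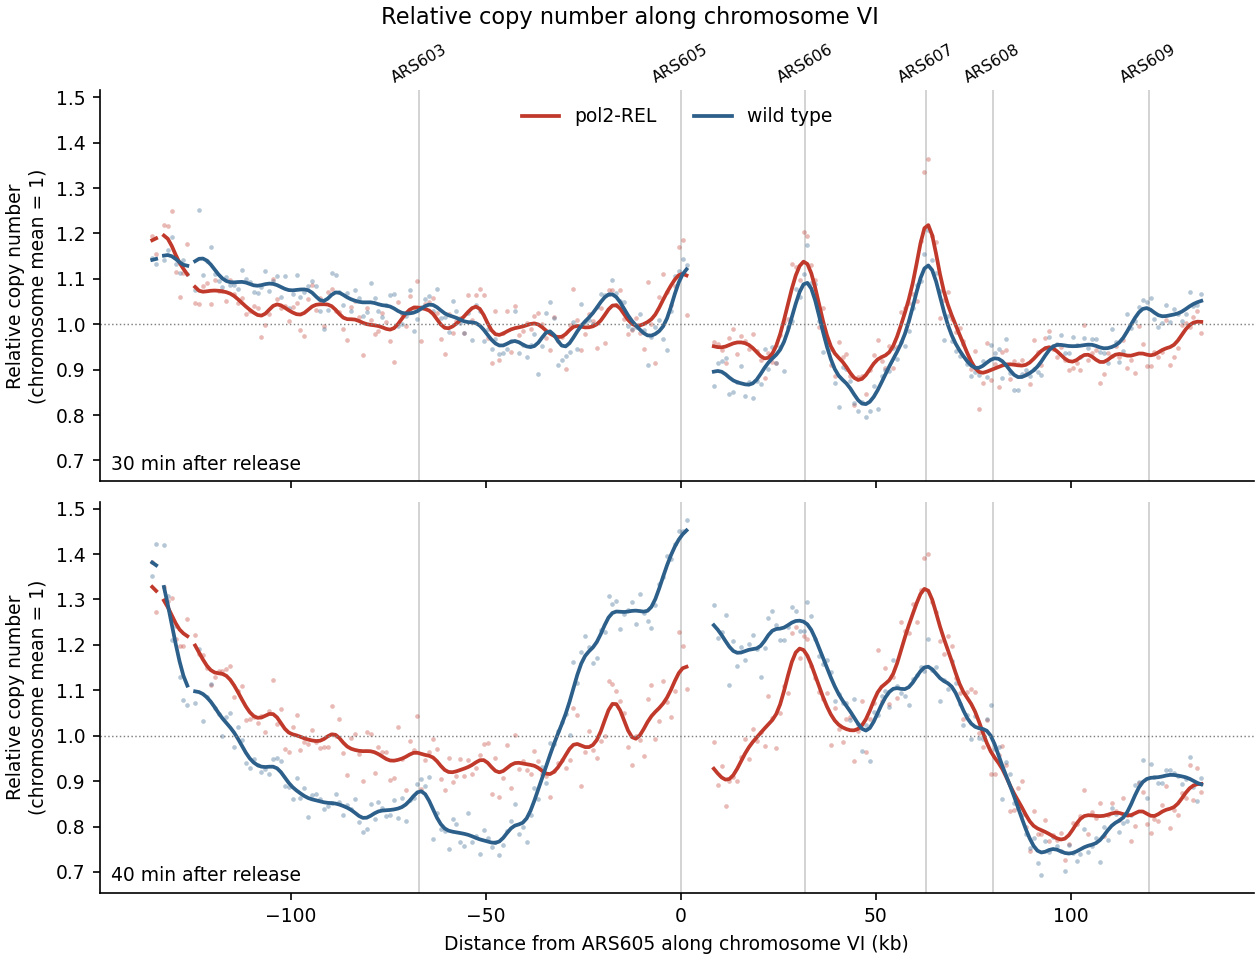
Relative copy number (vertical axis, chromosome mean of 1) against the distance from ARS605 in kb, at 30 min (upper panel) and 40 min (lower panel). Dots are single windows of 1 kb, lines are the same values after Gaussian smoothing (SD of 2 kb), red is *pol2-REL*, blue is wild type, and grey lines mark the named origins. At 40 min the blue line stays above 1 from left of ARS605 to ARS608, while the red line dips below 1 between ARS605 and ARS606.

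ARS607 was the most copied named origin in *pol2-REL* at both times. Its 4 windows, from 197001 to 201000, collected 6753 (G1), 15181 (30 min) and 16764 (40 min) reads in *pol2-REL*, against 16762, 18455 and 14253 in wild type. The relative copy number at 30 min was 1.27 in *pol2-REL* (95% interval 1.24 to 1.31) and 1.15 in wild type (1.13 to 1.18). By 40 min it was 1.36 in *pol2-REL* (1.322 to 1.398) and 1.17 in wild type (1.146 to 1.198). The *pol2-REL* level over the wild-type level was 1.104 at 30 min (1.066 to 1.144) and 1.16 at 40 min (1.119 to 1.202), and the intervals of the genotypes did not overlap. At these windows the *pol2-REL* G1 library itself stood at 0.951 of the wild-type G1 library (0.925 to 0.978). With the G1 libraries left out, the ratios were 1.05 and 1.103. The smoothed peak lay in the window from 199001 in 3 of the libraries and 1 window to the left in *pol2-REL* at 40 min.

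The peak of ARS607 also stood further above its surroundings in *pol2-REL*. Its height over the windows 15 to 20 kb away on both sides was 0.429 in *pol2-REL* and 0.315 in wild type at 30 min, and 0.374 and 0.159 at 40 min. The flank on the right holds ARS608. The *pol2-REL* to wild-type G1 ratio of 0.951 at the windows of ARS607 also enters these heights, and its part in them was not tested. With distance the genotypes drew closer. On the left side at 40 min, the level within 2 kb was 1.36 in *pol2-REL* and 1.16 in wild type, and at 10 to 15 kb it was 1.11 and 1.05. On the right side the level at 10 to 15 kb was 1.06 in *pol2-REL* and 1.02 in wild type. The ratio between genotypes at 40 min was thus furthest from 1 at the origin itself.

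ARS606 was the second highest origin in *pol2-REL*, and its order relative to wild type turned between the times. Its windows, from 166001 to 170000, held 6829, 13994 and 14923 reads in *pol2-REL* in G1 and at 30 and 40 min, against 16146, 17132 and 14833 in wild type. The level at 30 min was 1.16 in *pol2-REL* (1.13 to 1.19) and 1.11 in wild type (1.09 to 1.13), a ratio of 1.04 (1.01 to 1.08). At 40 min it was 1.197 in *pol2-REL* (1.16 to 1.23) and 1.27 in wild type (1.24 to 1.29), a ratio of 0.945 (0.912 to 0.980). The G1 libraries did not differ here beyond counting error, with a ratio of 0.999 (0.971 to 1.03). Both differences exceeded counting error by little, and at 30 min the intervals of the genotypes overlapped. Read over 2 windows in place of 4, the ratio was 1.05 at 30 min (0.999 to 1.106) and 0.961 at 40 min (0.912 to 1.011). Both of these intervals include 1. Over 10 windows the ratio was 1.05 at 30 min (1.02 to 1.07) and 0.938 at 40 min (0.917 to 0.959). Height over the flanks at 30 min was 0.232 in *pol2-REL* (0.190 to 0.275) and 0.307 in wild type (0.273 to 0.341), the opposite order to the level, with intervals that just overlap. Over flanks at 10 to 15 kb the heights did not differ beyond counting error, with 1 plus the height in *pol2-REL* at 0.992 times wild type (0.950 to 1.036). Heights at 40 min were 0.189 in *pol2-REL* (0.149 to 0.230) and 0.147 in wild type (0.116 to 0.177), also with overlapping intervals.

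ARS605 showed the largest difference in level between genotypes of the 6 origins, at 40 min, and no difference beyond counting error at 30 min. Its windows, from 134001 to 138000, held 6519, 12883 and 13851 reads in *pol2-REL* in G1 and at 30 and 40 min, against 15646, 16848 and 16601 in wild type. At 30 min the level was 1.12 in *pol2-REL* (1.08 to 1.15) and 1.13 in wild type (1.102 to 1.151), a ratio of 0.992 whose interval, 0.957 to 1.03, includes 1. Over all windows with a ratio within 5 kb, which the gap cuts off on the right, that ratio was 1.035 (1.007 to 1.064). At 40 min the level was 1.16 in *pol2-REL* (1.13 to 1.198) and 1.46 in wild type (1.43 to 1.49), a ratio of 0.796 (0.767 to 0.825). In wild type ARS605 was then the highest of the 6 origins, whereas in *pol2-REL* it came after ARS607 and ARS606 and did not differ from ARS606 beyond their intervals. The smoothed value peaked in the last window before the gap, from 137001, in 3 of the libraries. The height over the flanks at 15 to 20 kb differed less, at 0.112 in *pol2-REL* and 0.161 in wild type at 30 min and 0.123 and 0.176 at 40 min. The surroundings differed too: at 40 min the level 10 to 15 kb to the left was 0.997 in *pol2-REL* and 1.29 in wild type, and at that distance to the right it was 0.903 and 1.21. Over flanks at 10 to 15 kb, the order of the heights at 40 min turned, with 1 plus the height in *pol2-REL* at 1.045 times wild type (1.000 to 1.091).

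**Figure D2:**
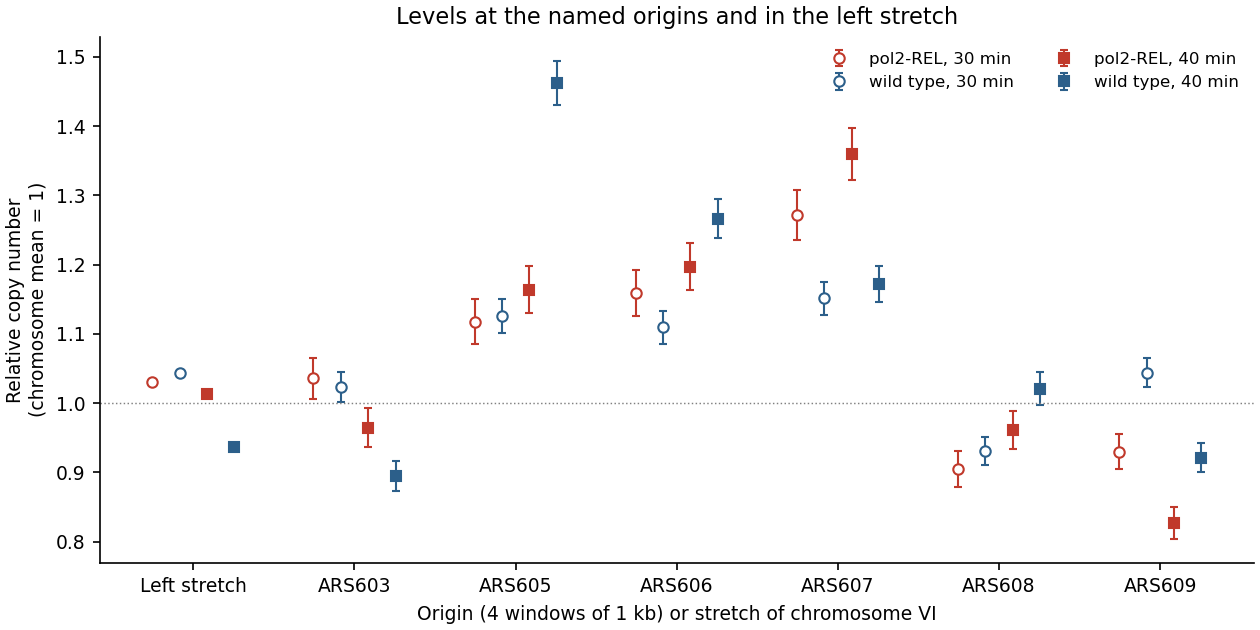
Relative copy number (vertical axis, chromosome mean of 1) in the stretch up to position 118000 and in the 4 windows at each named origin, for *pol2-REL* (red) and wild type (blue) at 30 min (open circles) and 40 min (filled squares). Bars are 95% intervals from counting error, with 1 library per point. The largest separation is at ARS605 at 40 min, with 1.16 in *pol2-REL* and 1.46 in wild type, and at ARS607 the *pol2-REL* points lie above those of wild type at both times.

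ARS609, the origin nearest the right end, was lower in *pol2-REL* at both times. Its windows, from 254001 to 258000, held 8157, 13417 and 12316 reads in *pol2-REL* in G1 and at 30 and 40 min, against 18934, 18903 and 12660 in wild type. The level at 30 min was 0.930 in *pol2-REL* (0.905 to 0.956) and 1.04 in wild type (1.02 to 1.07), and at 40 min it was 0.827 (0.804 to 0.850) and 0.922 (0.901 to 0.942). The ratio was 0.891 (0.861 to 0.922) at 30 min and 0.897 (0.866 to 0.930) at 40 min. Only the flank on the left could be used, since the right one runs past the chromosome end. Over it, the height at 30 min was 0.000804 in *pol2-REL* (-0.0361 to 0.0391) and 0.0928 in wild type (0.0630 to 0.123). At 40 min it was 0.00268 in *pol2-REL* (-0.0349 to 0.0417) and 0.220 in wild type (0.182 to 0.259). A rise over the left flank was thus not detectable in *pol2-REL* at this depth. Neither genotype had a local maximum with a prominence over 4 times the counting error at ARS609, and in wild type at 40 min the smoothed value stayed flat to its right, with 0.907 at 256001 and 0.914 at 261001.

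ARS603, in the middle of the left stretch, had levels that differed between genotypes beyond counting error at 40 min and not at 30 min. Its windows, from 67001 to 71000, held 7117, 13037 and 12540 reads in *pol2-REL* in G1 and at 30 and 40 min, against 16907, 16540 and 10976 in wild type. At 30 min the level was 1.04 in *pol2-REL* and 1.02 in wild type, a ratio of 1.01 (0.977 to 1.05), and the heights over the flanks, 0.0226 and 0.00435, both had intervals that include 0. The smoothed *pol2-REL* profile at 30 min had a low local maximum there, 1.04 at 68001. At 40 min the level was higher in *pol2-REL*, at 0.965 (0.937 to 0.993), than in wild type, at 0.895 (0.874 to 0.916), a ratio of 1.08 (1.04 to 1.12). Set against the left stretch in place of the whole chromosome, that ratio was 0.997 (0.960 to 1.04). The height over the flanks had the opposite order, with 0.00140 in *pol2-REL* (-0.0324 to 0.0364) and 0.106 in wild type (0.0752 to 0.138). In wild type a small peak thus stood on a low stretch. In *pol2-REL* the stretch was higher relative to its own chromosome mean, and no height over these flanks was detectable.

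ARS608 had no local maximum with a prominence over 4 times the counting error in any library. In wild type at 30 min the smoothed value had a rise below that limit, with 0.904 at 211001, 0.925 at 216001 and 0.884 at 222001. Its windows, from 214001 to 218000, held 7314, 11701 and 12835 reads in *pol2-REL* in G1 and at 30 and 40 min, against 17122, 15248 and 12682 in wild type. The level at 30 min was 0.905 in *pol2-REL* (0.879 to 0.931) and 0.931 in wild type (0.911 to 0.952), a ratio of 0.971 whose interval of 0.937 to 1.01 includes 1. The values at 40 min were 0.961 in *pol2-REL* (0.934 to 0.989) and 1.02 in wild type (0.998 to 1.04), a ratio of 0.941 (0.907 to 0.976), and over 10 windows the ratio was 0.983 (0.961 to 1.006). Over the flanks, of which the left one holds ARS607 itself, its height at 40 min was -0.0735 in *pol2-REL* (-0.104 to -0.0416) and 0.0704 in wild type (0.04159 to 0.09997). Within 8 kb of ARS608 the highest smoothed value always lay in the window from 208001, at the edge towards ARS607. At 40 min the profile fell away from ARS607 through ARS608. The level 5 to 10 kb to the left of ARS608 was then 1.099 in *pol2-REL* and 1.06 in wild type. At that distance to the right it was 0.836 and 0.818. At 30 min the fall did not run through ARS608. The level 2 to 5 kb to its left was 0.875 in *pol2-REL* and 0.902 in wild type, and to its right 0.924 and 0.914.

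In *pol2-REL* the 6 origins had the order ARS607, ARS606, ARS605, ARS603, ARS609 and ARS608 at 30 min. The neighbours ARS606 and ARS605, and ARS609 and ARS608, did not differ beyond their intervals. In wild type at 30 min the order was ARS607, ARS605, ARS606, ARS609, ARS603 and ARS608, with overlapping intervals among the first 3 and between ARS609 and ARS603. At 40 min the *pol2-REL* order had ARS608 and ARS609 exchanged, with ARS603 and ARS608 not apart, and the wild-type order was ARS605, ARS606, ARS607, ARS608, ARS609 and ARS603, with only the last pair not apart. The highest origin thus differed between the genotypes at 40 min. At 30 min ARS607 had the highest value in both, but in wild type it was not apart from ARS605 and ARS606.

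The profile between ARS605 and ARS606 showed the widest difference on the chromosome. At 30 min the lowest smoothed value between these origins was 0.925 in *pol2-REL* and 0.867 in wild type, at 157001 and 153001. By 40 min it stood at 0.903 in *pol2-REL*, in the window from 147001, and 1.18 in wild type, in the window from 150001. The windows from 140001 to 160000 had a level of 0.967 in *pol2-REL* and 1.22 in wild type at 40 min. Between ARS606 and ARS607 the lowest value at 40 min was 1.01 in *pol2-REL* and 1.01 in wild type, with 0.877 and 0.824 at 30 min. Between ARS608 and ARS609 it was 0.771 in *pol2-REL* and 0.740 in wild type at 40 min, in the windows from 233001 and 235001, which were also the lowest points of their profiles.

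In wild type at 40 min, all windows with a ratio over 112 kb lay above the chromosome mean after smoothing, from 104001 to 216000, with ARS605, ARS606, ARS607 and the position of ARS608 inside it. In *pol2-REL* this part held 3 separate runs of 5 kb or more, from 115001 to 123000, from 125001 to 138000 around ARS605 and from 156001 to 214000 around ARS606 and ARS607. At 30 min the runs at these origins were short in both genotypes. They measured 12, 11 and 13 kb at ARS605, ARS606 and ARS607 in *pol2-REL*, against 6, 8 and 10 kb in wild type. The runs at ARS605 that end at 138000 stop at the gap, so their lengths are cut off on the right. Counted as local maxima with a prominence over 4 times the counting error, there were 6 peaks in *pol2-REL* and 4 in wild type at 30 min, and 4 in each at 40 min. In *pol2-REL* at 30 min those at 68001, 83001 and 119001 passed this limit by little. Their prominences were 0.0457, 0.0506 and 0.0449 at a median counting error of 0.0111. Maxima at no named origin were found at 2 places. The first lay in the windows from 118001 or 119001 with a smoothed value of 1.04 in *pol2-REL* and 1.07 in wild type at 30 min, and of 1.07 in *pol2-REL* at 40 min. In wild type at 40 min this place was part of the broad rise towards ARS605 and had no maximum of its own. The second, at 83001 in *pol2-REL* at 30 min, had a smoothed value of 1.04 and lies beside the lowest point of the G1 ratio, 0.949 at 85001, whose part in it was not tested.

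The stretch up to position 118000 stayed near the chromosome mean in *pol2-REL* and was below it in wild type at 40 min. It held 116 windows with a ratio, against 146 in the rest. Its reads numbered 205984 (G1), 375266 (30 min) and 380970 (40 min) in *pol2-REL*, against 485152, 484494 and 329693 in wild type. Its level at 30 min was 1.03 in *pol2-REL* and 1.04 in wild type, and at 40 min it was 1.01 in *pol2-REL* (1.01 to 1.02) and 0.937 in wild type (0.934 to 0.940). Single windows of the stretch ran from 0.864 to 1.38 in *pol2-REL* at 40 min, with a median of 0.981, and from 0.738 to 1.42 in wild type, with a median of 0.885. The rest of the chromosome over this stretch, a contrast that no common factor changes, was 0.948 in *pol2-REL* and 0.925 in wild type at 30 min. Later, at 40 min, it was 0.978 in *pol2-REL* (0.971 to 0.985) and 1.12 in wild type (1.11 to 1.13). The contrast in *pol2-REL* relative to wild type was thus 1.025 at 30 min (1.016 to 1.034) and 0.873 at 40 min (0.865 to 0.881). The same contrast of the *pol2-REL* to the wild-type G1 reads was 0.995 (0.989 to 1.00).

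Within the stretch the level changed with distance from the left end. In the first 20 kb it was above 1 in every library, at 1.12 in *pol2-REL* and 1.14 in wild type at 30 min and at 1.22 and 1.17 at 40 min. From 40001 to 60000, the level at 40 min was 0.987 in *pol2-REL* and 0.848 in wild type. From 80001 to 100000 it was 0.941 in *pol2-REL* and 0.797 in wild type, the lowest of the stretch in both. From 100001 to 120000 the order turned, with 0.984 in *pol2-REL* and 1.13 in wild type. G1 depth was itself uneven, with a similar shape in both genotypes. In the first 20 kb it was 0.859 of the chromosome mean in *pol2-REL* and 0.830 in wild type, from 140001 to 160000 it was 0.955 and 0.938, and from 240001 to 260000 it was 1.11 and 1.11. Its part in the levels near the ends was not tested.

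**Figure D3:**
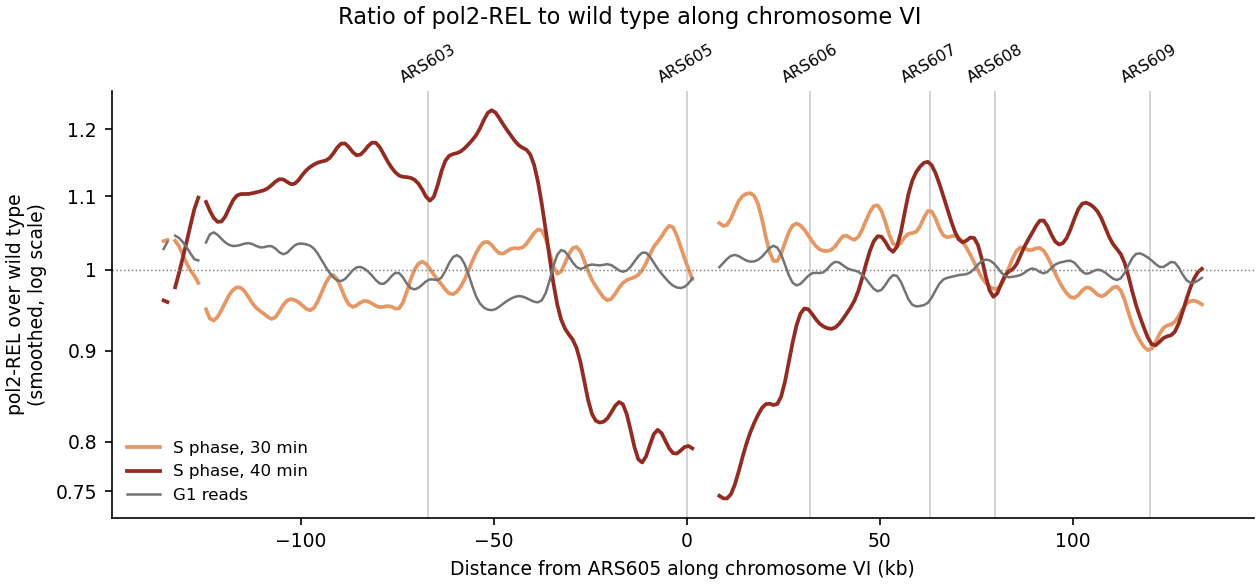
Ratio of *pol2-REL* to wild type (vertical axis, log scale) for smoothed relative copy number at 30 min (orange) and 40 min (dark red), and for the G1 reads (grey), against the distance from ARS605 in kb. The 40 min ratio runs from 1.23 in the left stretch to 0.743 just right of ARS605, while the G1 ratio stays between 0.949 and 1.05.

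Past a fixed fold, more windows differed between genotypes at 40 min than at 30 min, both on chromosome VI and in the genome. At 30 min, 18 of 262 windows (6.87%) were higher in *pol2-REL* by 1.1-fold or more, against 15.3% of all 11509 windows of the genome, and 17 (6.49%) were lower by that fold, against 15.3%. Both shares lie under the background. The G1 libraries also differed less along chromosome VI, with an SD of their smoothed ratio of 0.0214, against a median of 0.0593 on the other chromosomes. Whether this lowered the shares was not tested. At 40 min, 93 windows (35.5%) were higher in *pol2-REL*, against 28.6% in the genome, and 59 (22.5%) were lower, against 24.9%. Of the 93 higher windows 70 lay in the stretch up to 118000, and of the 59 lower windows 48 lay right of it. The stretch holds 116 of the 262 windows. At 1.2-fold the balance at 40 min turned, with 16 windows higher and 33 lower. With a mean of 1 over the genome in place of the chromosome, 262 windows were higher and 0 lower at 30 min, and 253 higher and 0 lower at 40 min, so the directions hold only relative to the mean of chromosome VI. This setting carries the larger share of wild-type G1 reads on the chromosome.

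The places of largest difference at 40 min were spread over both parts. Smoothed values were furthest above wild type at 85001, with 0.946 in *pol2-REL* and 0.769 in wild type, a ratio of 1.23 (1.19 to 1.27). They were followed by 54001, with 0.966 and 0.819, and 44001, with 0.993 and 0.853. The G1 ratio at 85001 was 0.949, the lowest on the chromosome. They were furthest below wild type at 146001, with 0.908 in *pol2-REL* and 1.22 in wild type, a ratio of 0.743 (0.721 to 0.766). Next came 124001, with 0.993 and 1.28, and 134001 beside ARS605, with 1.12 and 1.42. At 30 min the extremes were smaller. The ratio was highest at 152001, with 0.958 in *pol2-REL* and 0.868 in wild type, at 185001 and at 198001 beside ARS607. It was lowest at 255001 beside ARS609, with 0.933 in *pol2-REL* and 1.04 in wild type, at 13001 and at 28001. Over the whole block from 140001 to 160000, which holds 152001 and 146001, *pol2-REL* stood at 1.07 times wild type at 30 min and at 0.794 times at 40 min.

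The change between the S phase samples needs no G1 library, since reads at 40 min can be set over reads at 30 min of the same genotype. Relative to the chromosome mean, ARS605 had 1.04 times (1.02 to 1.07) as many reads at 40 min as at 30 min in *pol2-REL*, against 1.299 times (1.27 to 1.33) in wild type. At ARS606 this was 1.03 in *pol2-REL* (1.01 to 1.06) and 1.14 in wild type (1.12 to 1.17). ARS607 had the other order, with 1.07 in *pol2-REL* (1.05 to 1.09) and 1.02 in wild type, where the interval of 0.996 to 1.04 includes 1. At ARS608 it was 1.06 in *pol2-REL* and 1.096 in wild type. ARS603 was at 0.931 in *pol2-REL* and 0.875 in wild type, and ARS609 at 0.889 and 0.883. ARS603 and ARS609 thus lost ground against the chromosome mean in both genotypes, and ARS605, ARS606 and ARS608 gained.

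Along the chromosome the change differed most between the genotypes around ARS605. Over the block from 180001 to 200000 it was 1.16 in *pol2-REL* and 1.16 in wild type, but the genotypes had opposite orders within it: smoothed values were 1.172 in *pol2-REL* and 1.220 in wild type at 184001, and 1.147 and 1.051 at 196001. From 140001 to 160000, right of the gap, it was 1.02 in *pol2-REL* and 1.37 in wild type, and from 120001 to 140000 it was 1.02 and 1.31. From 40001 to 60000 it was 0.962 in *pol2-REL* and 0.802 in wild type. In *pol2-REL*, 46 of 262 windows (17.6%) were higher at 40 min by 1.1-fold or more, against 16.2% in the genome, and 48 (18.3%) were lower, against 15.3%. In wild type, 97 windows (37.0%) were higher, against 25.4% in the genome, and 123 (46.9%) were lower, against 34.1%. In wild type 78 of the 123 lower windows lay in the stretch up to 118000, and in *pol2-REL* 8 of 48 did. That stretch holds 116 of the 262 windows. The contrast of the rest of the chromosome to the left stretch was 1.03 times as large at 40 min as at 30 min in *pol2-REL* (1.02 to 1.04), and 1.21 times in wild type (1.204 to 1.218).

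**Figure D4:**
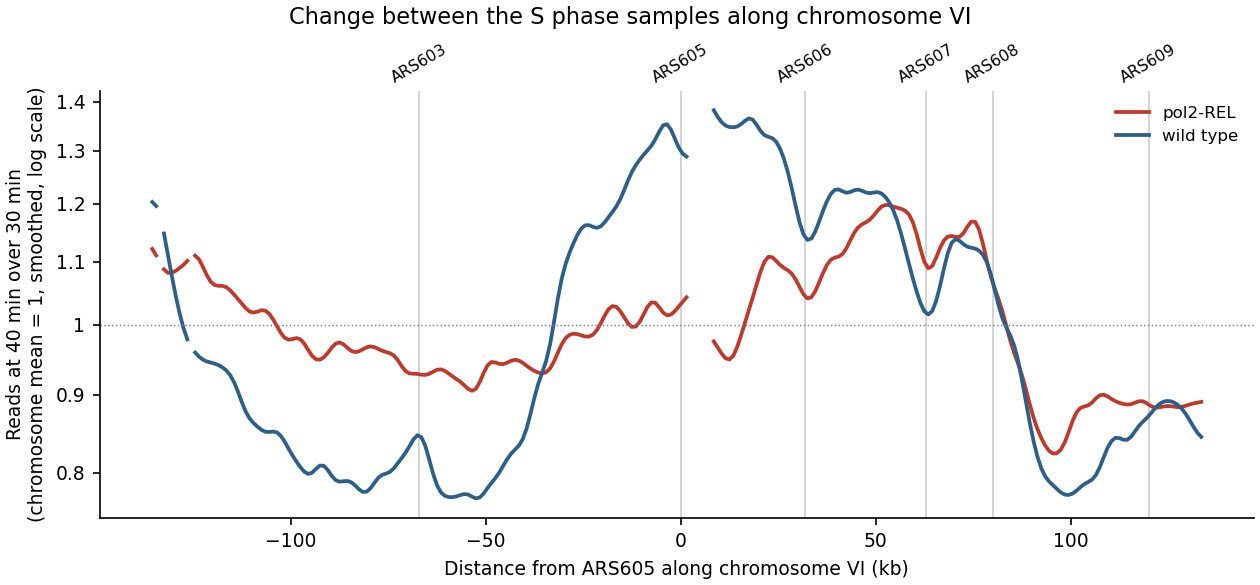
Reads at 40 min over reads at 30 min of the same genotype (vertical axis, log scale, chromosome mean of 1, smoothed), in *pol2-REL* (red) and wild type (blue), against the distance from ARS605 in kb. At ARS607 (199001) the lines stand at 1.089 in *pol2-REL* and 1.016 in wild type, and they are furthest apart on both sides of ARS605, where the blocks of 20 kb stand at 1.02 in *pol2-REL* and at 1.31 and 1.37 in wild type.

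The spread of the smoothed profile along chromosome VI, its SD over windows, was 0.0693 in *pol2-REL* and 0.0773 in wild type at 30 min, a ratio of 0.896 (0.840 to 0.956). At 40 min it was 0.127 in *pol2-REL* and 0.184 in wild type, a ratio of 0.692 (0.668 to 0.717). Over the 262 windows, the smoothed profiles of the genotypes had a Pearson's r of 0.829 at 30 min and 0.679 at 40 min. These describe the libraries, since neighbouring windows share forks and depth.

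Among the 16 chromosomes the ratio of spreads on chromosome VI lay within the range of the others, with rank 12 from the highest at 30 min and rank 9 at 40 min. The others ran from 0.709 on chromosome XV to 1.31 on chromosome XIV at 30 min, and from 0.492 on chromosome IV to 1.16 on chromosome IX at 40 min. The correlation between genotypes at 30 min was the highest of the 16, against 0.311 to 0.798 on the others. At 40 min it had rank 10 from the highest, at 0.679 against 0.434 to 0.855 on the others. The G1 libraries also differed less along chromosome VI than along most others: the SD of their smoothed ratio was 0.0214, against a median of 0.0593 on the other 15, and only chromosome III had a lower one. Whether the close G1 libraries account for the high correlation was not tested.

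**Figure D5:**
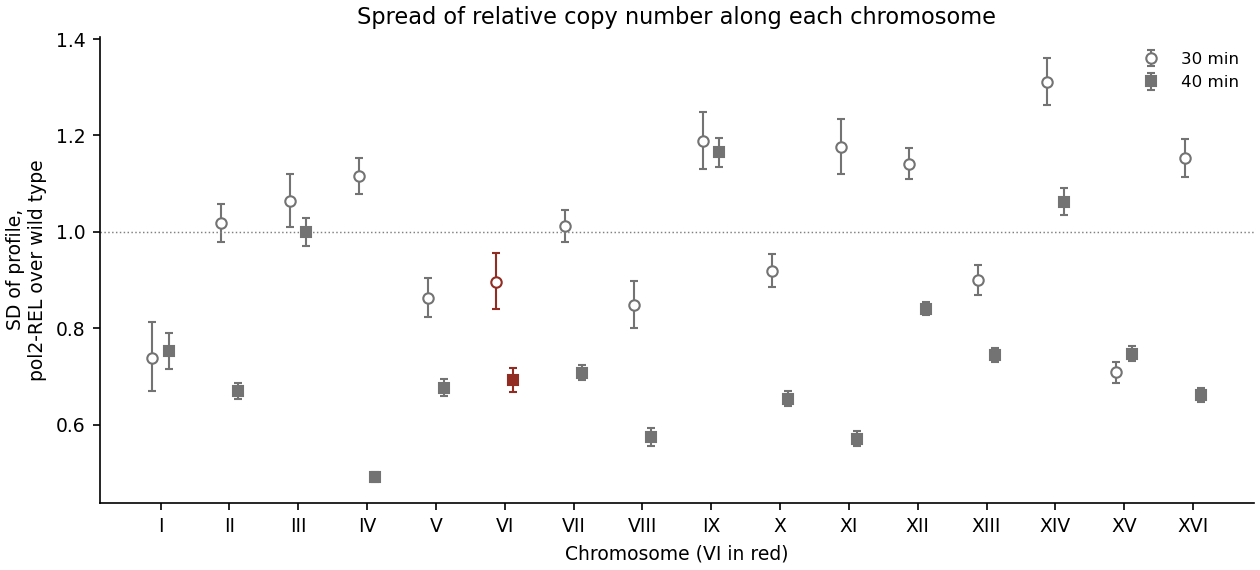
SD of the smoothed relative copy number profile of each chromosome in *pol2-REL* over that in wild type (vertical axis) at 30 min (open circles) and 40 min (filled squares), with 95% intervals from counting error. Chromosome VI (red), at 0.896 and 0.692, lies within the range of the other chromosomes at both times.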

How the data were processed

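The authors aligned paired-end reads to S288c (SacCer2), left out repetitive sequence and counted reads in windows of 1 kb that start every 500 bp. The submitters' processing notes name cutadapt, BWA 0.7.8 and Picard 1.110. Whether duplicates were removed is not stated. The deposited counts are raw reads per window. The deposited ratio columns divide S phase by G1 counts, with 602 the lowest count that has a ratio, scale this to a mean of 1 on chromosome VI, and smooth it by LOESS. The methods describe an adjustment for DNA content, which this scaling does not show.

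From these files, levels were ratios of summed counts, with 95% intervals from Poisson counting error by the delta method. Reads of a pair may not be independent, so the intervals cover counting error only. Origins were read within 2 kb of their position. Smoothing used a Gaussian kernel (SD of 2 kb). Windows past 1.1-fold used the deposited scaled ratio. The scripts were tested on simulated data. The named places followed a fixed rule: the 6 origins, the left stretch, the highest and lowest points, troughs, and 3 places of largest difference each way. Members, rule and lists were chosen with earlier results of these data known. The tools were numpy 2.4.6, pandas 2.3.3, SciPy 1.17.1 and matplotlib 3.10.9 under Python 3.11.15.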

Additional observations from a re-analysis of the deposited data

Results flagged for a closer look

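At 2 places the difference between genotypes changed direction between the times, with both intervals from counting error away from 1. The rest of the chromosome over the stretch up to position 118000, in *pol2-REL* relative to wild type, was 1.025 at 30 min (1.016 to 1.034) and 0.873 at 40 min (0.865 to 0.881). The level at ARS606 in *pol2-REL* relative to wild type was 1.04 at 30 min (1.01 to 1.08) and 0.945 at 40 min (0.912 to 0.980). Read over 2 windows in place of 4, both intervals at ARS606 included 1, and over 10 windows neither did. Neighbouring windows differed by more than counting error gives, so these intervals are somewhat narrow. The difference between the times was not tested, since each condition has 1 library.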

How the results depend on the processing

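The spread ratio at 40 min became 0.600 without the 20 kb at each end of the chromosome. Under the other settings tried it stayed within the interval of its main value, as did the spread ratio at 30 min under all of them. The contrast of the rest to the left stretch, *pol2-REL* relative to wild type, became 1.04 at 30 min without the 20 kb at each end. With the boundary at 100 kb, a setting chosen after seeing the data, it became 0.831 at 40 min. Neither changed direction.

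Counts of windows past the fold depended most on the settings. At 1.2-fold there were 1 higher and 0 lower at 30 min, and 16 higher and 33 lower at 40 min, where the main counts had more higher than lower. Running sums of 5 windows gave 5 higher and 5 lower at 30 min. Dividing both genotypes by the *pol2-REL* G1 reads, or by the summed G1 reads, each gave 9 lower at 30 min. In both of these settings the G1 reads cancel up to a common factor, so they are not independent. A mean of 1 over the genome gave 262 higher and 0 lower at 30 min and 253 higher and 0 lower at 40 min.

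Of 84 values at origins under other settings, 63 stayed within the interval of the main value, 19 moved and 2 changed side. Relative to the left stretch, ARS603 at 40 min had a ratio of 0.997 between genotypes. With flanks at 10 to 15 kb, the ratio of 1 plus the height at ARS605 at 40 min was 1.04. Level ratios with the *pol2-REL* G1 reads for both genotypes and with the summed G1 reads are equal by construction, since the G1 reads cancel. The 84 values thus hold each of these results 2 times. The level ratio at ARS607 stayed above 1 in all settings tried. No paired analysis was possible because each condition has 1 library. Depth limits a single window to a counting error of 1.53% to 2.35% per library.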
